A study of Homo sapiens with 9 samples.

Results

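The nuclear genes for the subunits of the mitochondrial respiratory chain and of the ATP synthase were followed in PANC-1 cells, an established human line derived from a pancreatic adenocarcinoma. Members were taken by symbol: NDUFA, NDUFB, NDUFC, NDUFS and NDUFV genes for complex I, SDHA to SDHD for complex II, UQCR genes for complex III, COX4 to COX8 genes for complex IV and ATP5 genes for complex V. The annotation gave 76 such protein-coding genes, on 150 probe sets, among 19775 genes on 54675 probe sets. They comprise 32 genes of complex I, 3 of complex II, 6 of complex III, 17 of complex IV and 18 of complex V. SDHB and UQCRFS1 have no probe set of their own in the annotation used and were not analysed here.

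Complexes I and II pass electrons from NADH and from succinate to coenzyme Q, complex III passes them on to cytochrome c, and complex IV hands them to oxygen. Complexes I, III and IV pump protons out of the mitochondrial matrix, and the ATP synthase (complex V) lets them back through a rotating ring and makes ATP. Most subunits are encoded in the nucleus and imported, while a small set of core subunits is encoded in mitochondrial DNA.

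The study measured total RNA on 9 Affymetrix HG-U133 Plus 2.0 arrays, 3 for each group. The groups were cells given vehicle (DMSO), TVB-3166 at 0.1 µM or TVB-3166 at 1.0 µM for 72 h. The source names give 0.05% DMSO for the vehicle arrays, and the descriptions give 0.5% DMSO for treated arrays and for the vehicle arrays that have one. TVB-3166 is a fatty acid synthase inhibitor, per the series title, and all cells were in medium with charcoal-filtered serum. Groups follow the sample titles. The treatment field of the 1.0 µM samples gives 0.1 µM, and the description of 0.1 µM replicate 1 names DMSO. Nothing says that replicates are separate cultures, so p-values may measure technical spread only. Every array has a trimmed mean signal of 500.1. The 8 markers fixed for PANC-1, keratins, EPCAM and CDH1 of epithelium with VIM and CD44, were all above the filter on dim probe sets (means of 318.2 to 21984.0 in DMSO). Of these, KRT8 and KRT19 fell at 1.0 µM against DMSO in limma, with log2 changes of −0.86 and −0.90, and KRT7 rose, with 1.06. Of 14 measured markers of other cell types, 5 were above the filter. CD3E, ACTN2, HBB and PECAM1 had means of 73.8, 73.4, 134.1 and 191.0 in DMSO and did not pass, and MB, of muscle, had means of 868.3 at 1.0 µM and 1221.7 in DMSO and fell (−0.49). The other 9, PTPRC, CD14, CPA1, INS, GCG, MYH7, CKM, VWF and CDH5, were below the filter. The part of these genes in the members' changes was not tested. The arrays part at a mean log2 signal of 11.67 over 9 hybridisation spike probe sets. DMSO replicate 2, 0.1 µM replicates 1 and 3 and 1.0 µM replicate 2 lie above it, here the higher spike set, and the other 5 arrays lie below. The higher set thus has 1 array of DMSO and 1 at 1.0 µM, and the lower set has 1 at 0.1 µM. A call held or lost within a set, where a compared group has 1 array, rests on the spread of other groups. No label says what the split marks.

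Promoters of 4 members that fell at 1.0 µM are shown because their genes carry the results below. They hold 250 bases before and 50 after the transcription start, are from RefSeq on GRCh38.p14 and lie on the plus strand. The windows are chr5:218070-218369 for SDHA, chr17:48892537-48892836 for ATP5MC1, chr11:47578824-47579123 for NDUFS3 and chr10:7787927-7788226 for ATP5F1C. Capitals mark matches on either strand to letters bound by factors known for respiratory genes: GCGCANGCG for NRF1, CCGGAAG for GABPA and AAGATGGCG for YY1. The letters were settled after the data were seen.
SDHA: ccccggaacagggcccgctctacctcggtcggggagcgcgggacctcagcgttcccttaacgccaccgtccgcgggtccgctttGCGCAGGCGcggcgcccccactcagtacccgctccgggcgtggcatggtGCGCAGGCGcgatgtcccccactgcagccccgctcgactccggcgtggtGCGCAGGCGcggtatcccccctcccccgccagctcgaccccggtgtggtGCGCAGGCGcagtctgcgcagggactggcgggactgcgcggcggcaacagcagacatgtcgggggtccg
ATP5MC1: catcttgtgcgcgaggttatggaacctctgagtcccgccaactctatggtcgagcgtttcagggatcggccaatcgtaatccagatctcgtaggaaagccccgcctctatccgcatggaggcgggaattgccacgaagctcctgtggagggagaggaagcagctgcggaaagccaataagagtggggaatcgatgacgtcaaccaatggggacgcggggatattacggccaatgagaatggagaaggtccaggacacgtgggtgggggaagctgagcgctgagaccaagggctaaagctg
NDUFS3: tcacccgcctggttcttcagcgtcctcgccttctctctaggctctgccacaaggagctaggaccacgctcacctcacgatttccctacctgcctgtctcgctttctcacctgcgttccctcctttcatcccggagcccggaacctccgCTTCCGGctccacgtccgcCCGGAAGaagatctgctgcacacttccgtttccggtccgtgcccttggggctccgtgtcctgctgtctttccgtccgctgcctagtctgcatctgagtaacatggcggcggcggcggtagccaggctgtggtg
ATP5F1C: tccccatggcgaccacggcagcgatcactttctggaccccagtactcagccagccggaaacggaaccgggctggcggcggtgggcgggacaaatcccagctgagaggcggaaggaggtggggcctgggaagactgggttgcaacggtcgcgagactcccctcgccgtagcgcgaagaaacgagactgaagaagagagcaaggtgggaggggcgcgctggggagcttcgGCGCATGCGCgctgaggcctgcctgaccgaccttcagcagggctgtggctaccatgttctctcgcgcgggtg
The SDHA window holds the NRF1 letters at 4 places, the ATP5F1C window holds them at 1 place, and the NDUFS3 window holds the GABPA letters at 2 places. None of these letters is in the ATP5MC1 window. A promoter was found for 65 of the 76 members. Each member counts with 1 promoter, while the other sets count every listed promoter, 16183 for the 13948 tested genes. The shares below are thus in unlike units. Of these, 21 (32.3%) hold the NRF1 letters, against 7.5% of all 35116 promoters and 11.8% of those of tested genes. The GABPA letters are in 18 members (27.7%), against 10.3% of all promoters and 15.7% of those of tested genes. The YY1 letters are in 7 members (10.8%), against 1.7% of all promoters and 3.1% of those of tested genes. No matches of different factors overlap. Among the 12 members that fell at 1.0 µM, 6 hold the NRF1 letters, 4 the GABPA letters and 1 the YY1 letters. Among 51 tested members that did not pass, 14 hold the NRF1 letters, 14 the GABPA letters and 6 the YY1 letters. A match is a run of letters and shows neither binding nor a cause.

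At 1.0 µM against DMSO, 12 of the 72 tested members fell and none rose, at an adjusted p under 0.05 in limma. Those 12 are SDHA in complex II, NDUFA2, NDUFB7, NDUFA3, NDUFS3, NDUFB11 and NDUFB3 in complex I, and ATP5MC1, ATP5F1C, ATP5PF, ATP5ME and ATP5MJ in the ATP synthase. No member of complexes III and IV passed. The 12 members are 16.7% of those tested, and limma called 23.2% of all 13948 genes in this comparison, 12.3% higher and 11.0% lower. The log2 change was below 0 for 64 of 72 members (88.9%), against 49.2% of all tested genes, and the members' median was −0.192, against 0.006. All 3 arrays at 1.0 µM lay below all 3 DMSO arrays in 22 members (30.6%), against 18.0% of all genes, and above them in 1 member, against 19.2%. Without adjustment, 25 members (34.7%) had p under 0.05, the same share as of all genes (34.7%). In bulk RNA, fewer cells of a type and less RNA per cell cannot be told apart.

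Both groups have 2 of 3 arrays in the lower spike set. Single arrays move the count of 12. It was 5 without 1.0 µM replicate 1 or replicate 3, with 8.27% and 7.79% of all genes called lower in those fits. It was 8 without DMSO replicate 1 or replicate 2 (8.54% and 8.57% of all genes), and 22 without 1.0 µM replicate 2 (11.4%). Among the lower spike set's arrays alone, 2 per group here, 20 members fell (median −0.20), with 9.18% of all genes called lower. The higher set has 1 array of each of these groups, so only its median change (−0.14) is given. With the spike set as a block, and likewise after quantile normalization, 31 members fell. These fits called 15.2% and 12.4% of all genes lower.

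**Figure D1:**
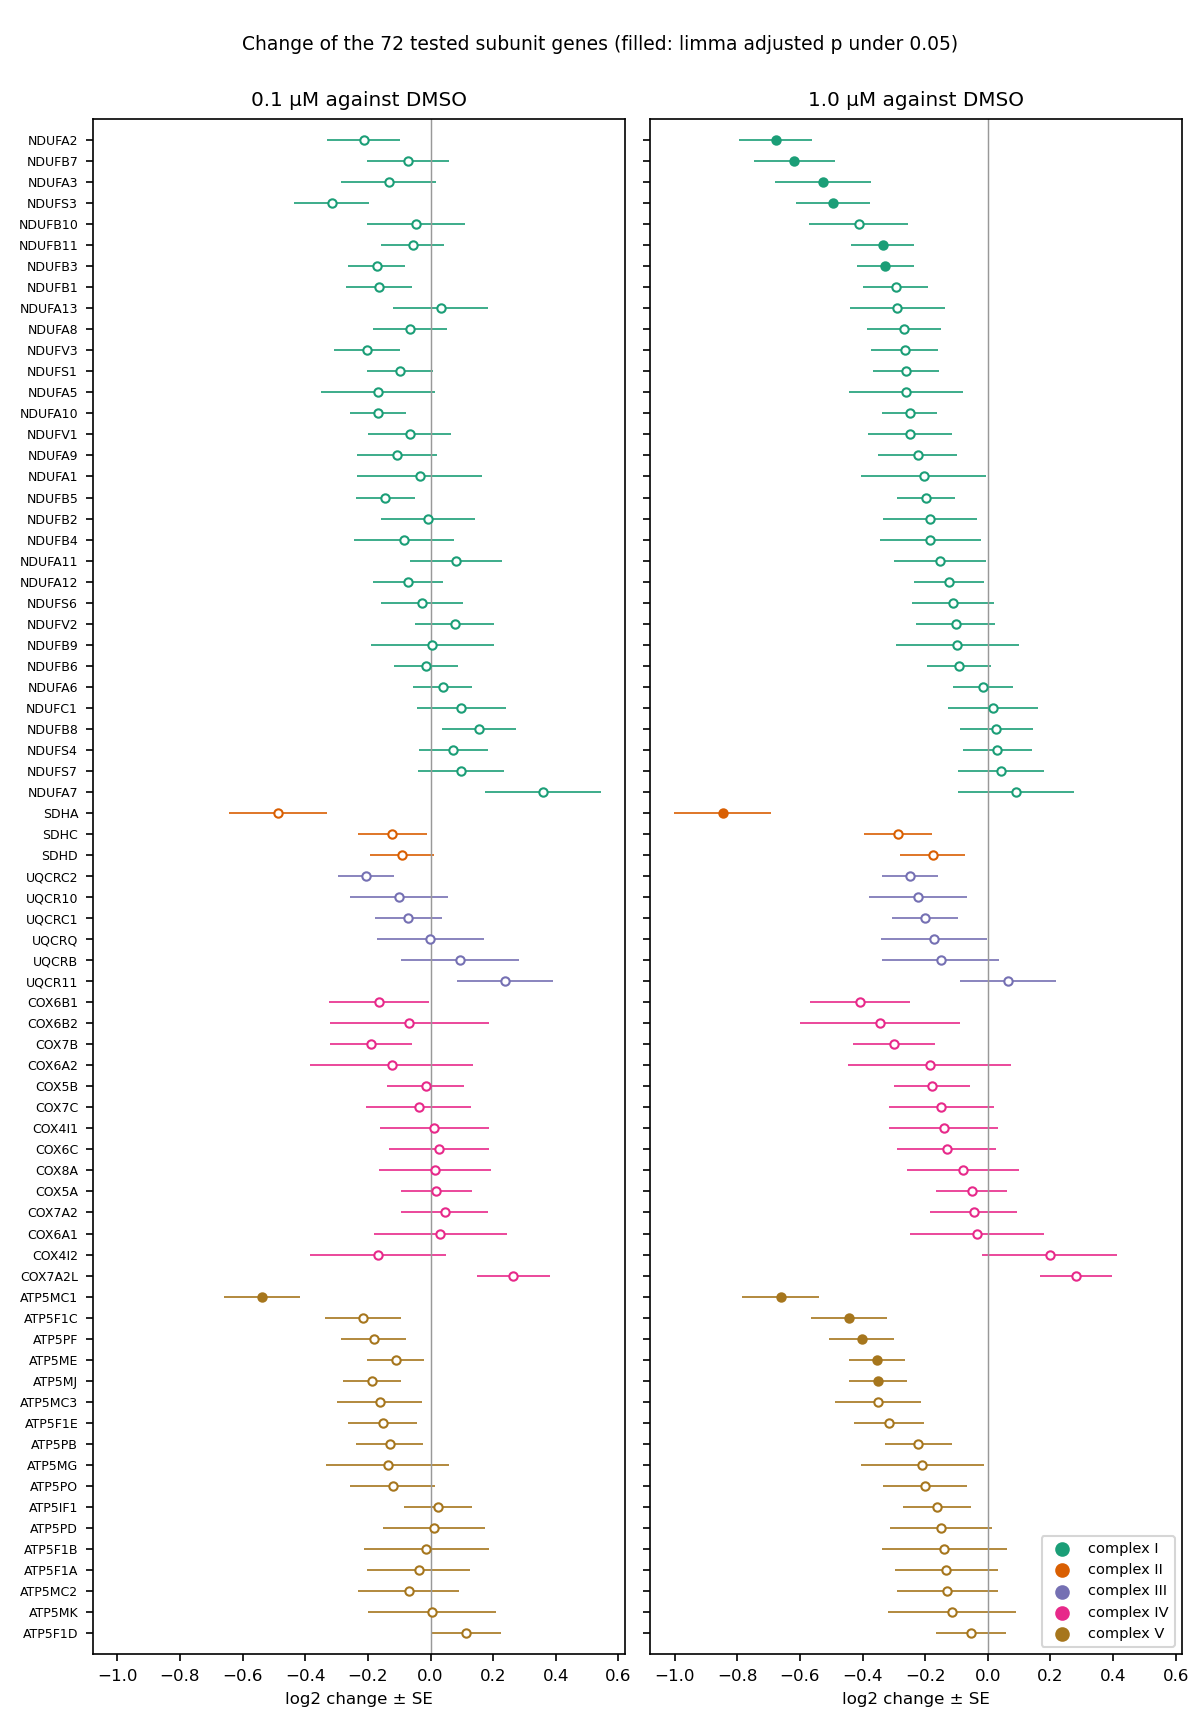
Log2 change (x axis, ± limma SE) of each of the 72 tested members at 0.1 µM (left) and 1.0 µM (right) against DMSO, n = 3 arrays per group, coloured by complex and filled where the adjusted p is under 0.05. At 1.0 µM 64 of 72 points lie left of 0 and 12 are filled, and at 0.1 µM 49 lie left of 0 and 1 is filled.

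The level of the members also moved with the spike split inside every group. As deviations from the DMSO mean, the members' median log2 level was −0.065, 0.146 and −0.073 in the 3 DMSO arrays, 0.087, −0.25 and 0.007 at 0.1 µM, and −0.349, 0.008 and −0.238 at 1.0 µM. The array in the higher spike set was the highest of its group in DMSO and at 1.0 µM, and the only array of the lower set was the lowest at 0.1 µM. Over all tested genes the same medians stayed between −0.025 and 0.029. The part of the split in the members' change was not tested beyond the within-set values given here.

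**Figure D2:**
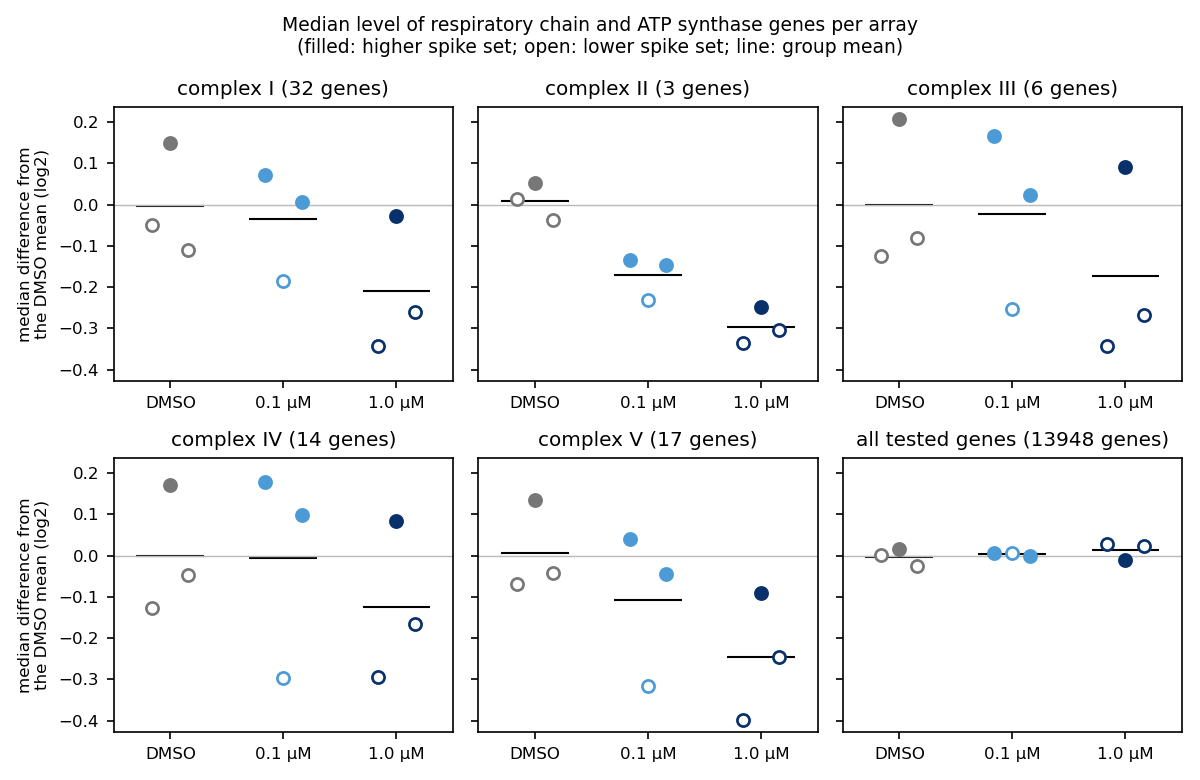
Median difference from the DMSO mean (y axis, log2) over the tested members of each complex and over all tested genes, 1 point per array in DMSO, 0.1 µM and 1.0 µM, with the group mean as a line. Filled points are arrays of the higher spike set; they lie above the open points of the same group in every complex panel, while all arrays lie near 0 over all tested genes.

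Complex I, the NADH dehydrogenase, had 6 of 32 members (18.8%) fall at 1.0 µM, against 11.0% of all genes. The median over the 32 was −0.215. Without adjustment, 37.5% of them had p under 0.05 in limma, against 34.7% of all genes. NDUFS3 is a core subunit of the arm that carries electrons to coenzyme Q. Its signal was 6616, 6952 and 6219.5 in DMSO, 5899, 4797 and 5228 at 0.1 µM and 4184, 5483 and 4454 at 1.0 µM. All 6 treated arrays lay below the 3 DMSO arrays. The log2 change was −0.49 ± 0.12 at 1.0 µM (adjusted p = 0.0101, limma) and −0.32 ± 0.12 at 0.1 µM (adjusted p = 0.113, limma). In the lower spike set alone its change at 1.0 µM was −0.57, and in the higher set, with 1 array per group, −0.34.

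The other called members of complex I are accessory subunits, which surround the catalytic core. NDUFA2, of the NADH-oxidising arm, had a signal of 5841, 6966 and 5527 in DMSO, 5441, 4741 and 5585 at 0.1 µM and 3514, 4249.7 and 3671 at 1.0 µM. The 1.0 µM arrays lay below all other arrays, and the 0.1 µM arrays overlapped those of DMSO. NDUFA2 changed by −0.68 ± 0.12 at 1.0 µM (adjusted p = 0.00128, limma), −0.66 within the lower and −0.71 within the higher spike set. NDUFB7, an accessory subunit of the membrane arm, gave 1867, 2517 and 1919 in DMSO, 2164, 1733 and 2071 at 0.1 µM and 1270.2, 1502 and 1294 at 1.0 µM, again with only the 1.0 µM arrays apart. Its change was −0.62 ± 0.13 (adjusted p = 0.00484, limma), −0.56 within the lower and −0.74 within the higher spike set. Each of these 2 genes has a second probe set with signals near 100 that did not fall, at 0.14 for NDUFA2 and 0.17 for NDUFB7, and on averaging probe sets neither gene passed (−0.27 and −0.23).

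NDUFA3, NDUFB11 and NDUFB3 are further accessory subunits. NDUFA3 had a signal of 3724, 5162 and 3844 at 1.0 µM, against 5732, 7168 and 5403 in DMSO, a change of −0.53 ± 0.15 (adjusted p = 0.0262, limma). NDUFB11 gave 4941, 5856 and 5073 at 1.0 µM, against 6825, 6915 and 6268 in DMSO, a change of −0.34 ± 0.10 (adjusted p = 0.0308, limma). NDUFB3 gave 3912, 4448 and 3809 at 1.0 µM, against 5000.5, 5183 and 5056 in DMSO, a change of −0.33 ± 0.09 (adjusted p = 0.0217, limma). In all 3 genes the 2 groups do not overlap. Calls held in 22 of 26 alternatives for NDUFA3, 17 for NDUFB11 and 19 for NDUFB3. Each ended without 1.0 µM replicate 1, 1.0 µM replicate 3 or DMSO replicate 2. Those of NDUFB11 and NDUFB3 also ended without DMSO replicate 1, after median centring and in the higher spike set alone.

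Of the other complex I members, NDUFV1 carries the flavin that accepts electrons from NADH and NDUFS1 carries iron-sulphur clusters. NDUFV1 was 3909, 5472 and 4281 at 1.0 µM, against 5021, 5603 and 5463 in DMSO and did not pass, at −0.25 ± 0.13 (adjusted p = 0.215, limma). NDUFS1 was 2708, 2853 and 2770.0 at 1.0 µM, against 3559, 3701 and 2811 in DMSO, at −0.26 ± 0.11 (adjusted p = 0.0953, limma). Their 95% intervals were −0.54 to 0.04 and −0.49 to −0.03. The 32 changes of complex I ran from −0.68 to 0.09, and 27 (84.4%) were below 0, against 49.2% of all genes.

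SDHA, the flavoprotein subunit of complex II that oxidises succinate, fell at 1.0 µM. SDHA (Entrez gene 6389, chromosome 5, 218320 to 268746 on GRCh38.p14) had a signal of 4275, 4475 and 4202 in DMSO, 3636, 2636 and 3035 at 0.1 µM and 1962, 3079 and 2270.1 at 1.0 µM. All treated arrays lay below the lowest DMSO array. Its mean was 2437 ± 577 at 1.0 µM and 4318 ± 141 in DMSO (SD, n = 3 each), a log2 change of −0.85 ± 0.16 (adjusted p = 0.00193, limma). The change was −1.001 within the lower and −0.54 within the higher spike set, and −1.03 without 1.0 µM replicate 2. At 0.1 µM it was −0.49 ± 0.16 (adjusted p = 0.0642, limma). Its only single-gene probe set ends in _x_at, an identifier for probes that can also bind related transcripts. SDHA has pseudogenes, so signal of this probe set cannot be assigned to SDHA alone.

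The membrane anchors of complex II, SDHC and SDHD, did not pass. SDHC was 4363, 4719 and 4460.4 at 1.0 µM, against 6072, 4765 and 5766 in DMSO, at −0.29 ± 0.11 (adjusted p = 0.081, limma); the groups did not overlap, and the change was −0.42 within the lower and −0.01 within the higher spike set. SDHD was 5632, 5305 and 5824 at 1.0 µM, against 6366, 6938 and 5685 in DMSO, at −0.18 ± 0.10 (adjusted p = 0.263, limma). The spike sets thus give opposite orders of size for the 2 anchors, −0.07 in the lower and −0.39 in the higher set for SDHD.

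**Figure D3:**
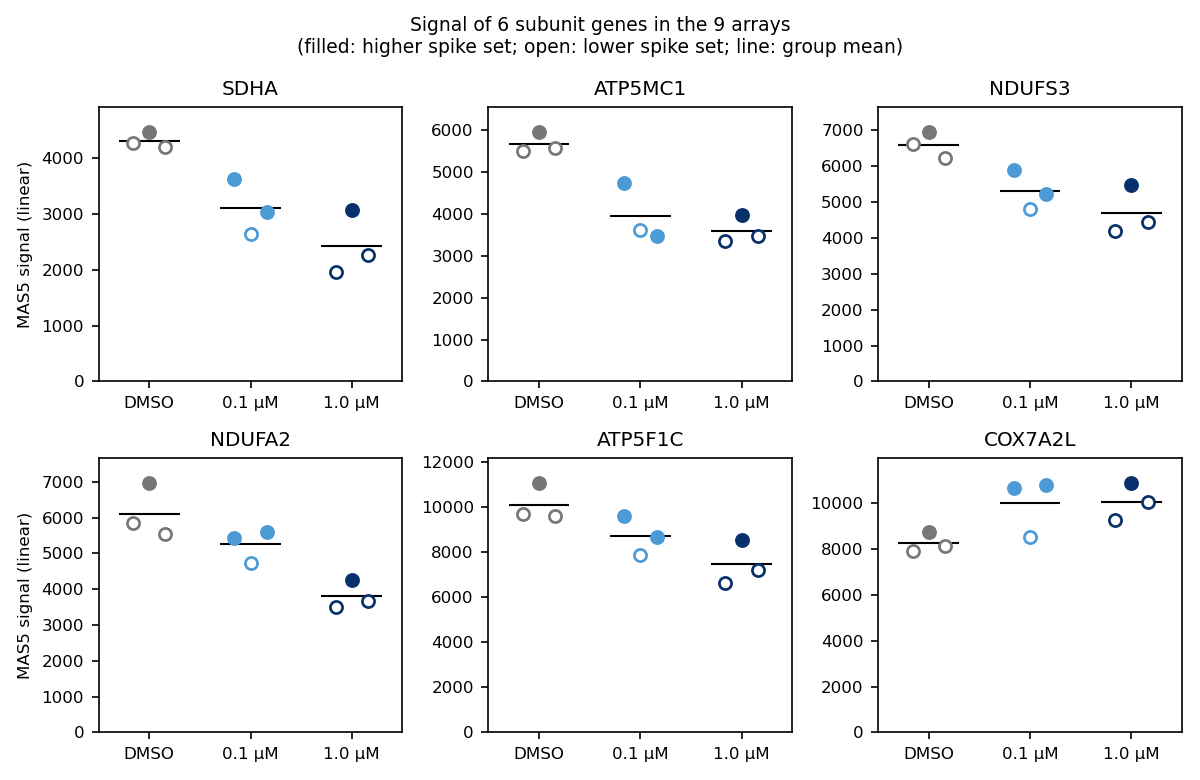
MAS5 signal (y axis, linear, from 0) of SDHA, ATP5MC1, NDUFS3, NDUFA2, ATP5F1C and COX7A2L in the 9 arrays, in the order DMSO, 0.1 µM and 1.0 µM, with group means as lines and arrays of the higher spike set filled. In the first 5 genes all 1.0 µM arrays lie below all DMSO arrays, and in COX7A2L all lie above.

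No member of complex III, which passes electrons from coenzyme Q to cytochrome c, was called among 6 tested. Of all genes, 11.0% were called lower at 1.0 µM. At 1.0 µM 5 of the 6 changes (83.3%) were below 0, against 49.2% of all genes, with a median of −0.186. UQCRC1 and UQCRC2 are its core structural subunits. UQCRC2 was 7424, 7295 and 7191 at 1.0 µM, against 8774, 9208 and 8083 in DMSO, at −0.25 ± 0.09 (adjusted p = 0.0648, limma), and the 2 groups did not overlap. UQCRC1 was 4729, 5956 and 4967 at 1.0 µM, against 5626, 6083 and 6202 in DMSO, at −0.20 ± 0.11 (adjusted p = 0.21, limma). With the spike set as a block UQCRC2 passed (adjusted p = 0.0105, limma) and UQCRC1 did not (adjusted p = 0.0617, limma).

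Complex IV, cytochrome c oxidase, had no called member among 14 tested, with a median of −0.136 at 1.0 µM. Of all genes, 11.0% were called lower in this comparison. COX4I1, the regulatory subunit found in most tissues, was 9889.9, 14294 and 10473 at 1.0 µM, against 11502, 14824 and 11649 in DMSO, at −0.14 ± 0.17 with a 95% interval of −0.52 to 0.24. COX5A, another ubiquitous subunit, was 11155, 13234 and 12522 at 1.0 µM, against 12146, 13602 and 12443 in DMSO, at −0.05 ± 0.11 with an interval of −0.30 to 0.20. COX5B changed by −0.18 ± 0.12, COX6A1 by −0.03 ± 0.21 and COX7A2 by −0.05 ± 0.14. In all 5 genes the groups overlapped. With the spike set as a block COX5B passed (adjusted p = 0.0303, limma), and COX4I1, COX5A, COX6A1 and COX7A2 did not. All 10 ubiquitous subunits had changes below 0, from −0.41 to −0.03, against 49.2% of all genes, and none passed without that block.

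The isoforms of complex IV known from lung, heart and muscle or testis were dim. COX4I2, the isoform known from lung, had signals of 162, 147 and 129 in DMSO, 110.0, 152 and 123 at 0.1 µM and 228, 163 and 129 at 1.0 µM, and COX6A2, of heart and muscle, 73.6, 117 and 80.2 in DMSO, 88.8, 60.3 and 94.6 at 0.1 µM and 95.1, 56.0 and 81.1 at 1.0 µM. COX7A1, COX7B2 and COX8C were below the filter, with signals of 2.4 to 24.3, 14.2 to 52.7 and 0.9 to 15.2.

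COX7A2L, known as an assembly factor that joins complexes III and IV into supercomplexes, was the only member whose 1.0 µM arrays all lay above the DMSO arrays. Its signal was 7915, 8744 and 8124 in DMSO, 10642, 8518 and 10765 at 0.1 µM and 9266, 10867 and 10027 at 1.0 µM. The change was 0.28 ± 0.12 at 1.0 µM, with a 95% interval of 0.03 to 0.53, and did not pass (adjusted p = 0.104, limma). It was 0.27 within the lower and 0.31 within the higher spike set, and with the spike set as a block it passed (adjusted p = 0.00693, limma).

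The ATP synthase had 5 of 17 tested members (29.4%) fall at 1.0 µM, against 11.0% of all genes. All 17 changes were below 0, against 49.2% of all genes, and their median was −0.209. ATP5MC1 (Entrez gene 516, chromosome 17, 48892787 to 48895871 on GRCh38.p14) encodes subunit c, which forms the rotating ring in the membrane. Its signal was 5506, 5954 and 5570.1 in DMSO, 4743, 3610.5 and 3476 at 0.1 µM and 3347, 3965 and 3459 at 1.0 µM. Every treated array lay below every DMSO array. ATP5MC1 fell at both doses, with changes of −0.66 ± 0.12 at 1.0 µM (adjusted p = 0.00198, limma) and −0.54 ± 0.12 at 0.1 µM (adjusted p = 0.0134, limma). The change at 1.0 µM was −0.70 within the lower and −0.58 within the higher spike set. At 0.1 µM it was −0.61 and −0.55, and the call ended without 0.1 µM replicate 3 (−0.45, adjusted p = 0.0792, limma).

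ATP5MC2 and ATP5MC3 encode the same mature subunit c from other genes and were named after their values were seen. ATP5MC2 was 8136, 11974 and 8825 at 1.0 µM, against 9717, 11812 and 9808 in DMSO, at −0.13 ± 0.16 with a 95% interval of −0.48 to 0.22. ATP5MC3 was 9780.3, 11696 and 10563 at 1.0 µM, against 12926, 15227 and 12741 in DMSO, at −0.35 ± 0.14 with an interval of −0.65 to −0.05 (adjusted p = 0.0851, limma). Only for ATP5MC2 did the groups overlap, and neither gene passed. The difference between the 3 genes' changes was not tested.

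**Figure D4:**
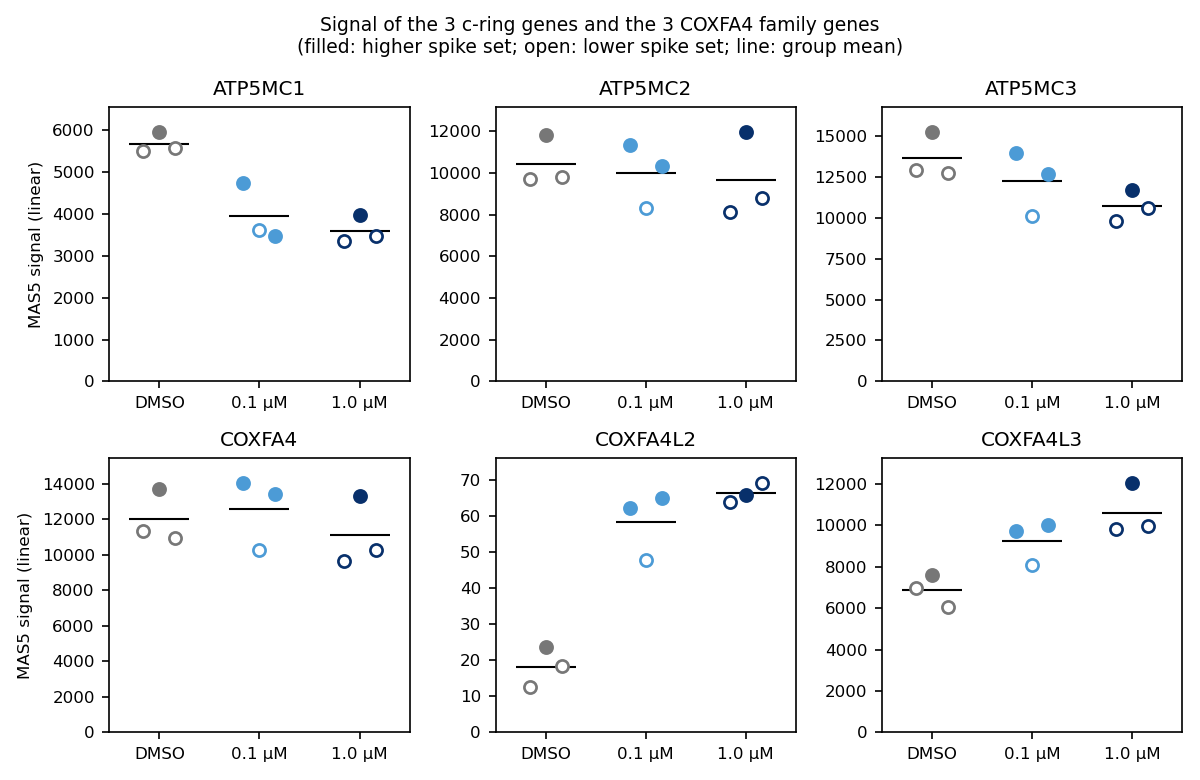
MAS5 signal (y axis, linear, from 0, own scale per panel) of the 3 genes for subunit c (top) and of COXFA4, COXFA4L2 and COXFA4L3 (bottom) in DMSO, 0.1 µM and 1.0 µM, with group means as lines and arrays of the higher spike set filled. ATP5MC1 separates treated arrays from DMSO at both doses, ATP5MC2 does not, and COXFA4L3 lies higher in all treated arrays. COXFA4L2 also lies higher there, but it passed the filter only through its treated arrays.

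In the catalytic head and central stalk, ATP5F1C encodes the gamma subunit that turns inside the head. Its signal (Entrez gene 509, chromosome 10, 7788177 to 7807801) was 9675, 11068 and 9581 in DMSO, 9601, 7883 and 8675 at 0.1 µM and 6637, 8542 and 7208 at 1.0 µM. The 1.0 µM arrays lay below all DMSO arrays, while the 0.1 µM arrays overlapped both. Its change at 1.0 µM was −0.44 ± 0.12 (adjusted p = 0.0202, limma), −0.48 within the lower and −0.37 within the higher spike set. The other 3 ATP5F1C probe sets gave −0.49 to −0.40. The call ended without DMSO replicate 2 and without 1.0 µM replicate 1 or replicate 3. ATP5F1A and ATP5F1B, the alpha and beta subunits of the head, overlapped between groups and changed by −0.13 ± 0.17 and −0.14 ± 0.20, with 95% intervals of −0.49 to 0.23 and −0.57 to 0.29.

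The peripheral stalk holds the head still. ATP5PF, its coupling factor subunit, was 6633, 7696 and 6751 at 1.0 µM, against 8832, 9854 and 9149.6 in DMSO, a change of −0.40 ± 0.10 (adjusted p = 0.0148, limma). The groups did not overlap, and the call ended without the same 3 arrays as for ATP5F1C. ATP5PO, which links stalk and head, was 8526, 11208 and 9328 at 1.0 µM, against 10555, 12529.5 and 10234 in DMSO, at −0.20 ± 0.14 (adjusted p = 0.336, limma). Its groups overlapped.

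Small subunits in the membrane hold neighbouring ATP synthases together. ATP5ME was 5271, 6041 and 5679.6 at 1.0 µM, against 7376, 7109 and 7206 in DMSO, and fell by 0.35 ± 0.09 on the log2 scale (adjusted p = 0.014, limma). ATP5MJ was 7222, 8179 and 7504 at 1.0 µM, against 10006, 9785 and 9401 in DMSO, and fell by 0.35 ± 0.09 on the log2 scale (adjusted p = 0.0165, limma). Neither gene's groups overlapped; both calls ended after median centring, in the higher spike set alone, and without DMSO replicate 1, 1.0 µM replicate 1 or 1.0 µM replicate 3. ATP5IF1, the inhibitor of ATP hydrolysis by the enzyme, was 1762, 1933 and 1819 at 1.0 µM, against 2127, 2303 and 1778 in DMSO, at −0.16 ± 0.11 (adjusted p = 0.327, limma). Its 3 probe sets ran from −0.67 to −0.16.

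At 0.1 µM, ATP5MC1 was the only member called of 72, with 12.0% of all genes called, 6.89% higher and 5.11% lower. The members' median change was −0.067, 49 of 72 changes (68.1%) were below 0, against 50.8% of all genes, and 5 members (6.9%) had p under 0.05 without adjustment, against 25.4% of all genes. Complex medians were −0.062 for I, −0.122 for II, −0.035 for III, −0.002 for IV and −0.121 for V. All 3 arrays at 0.1 µM lay below DMSO in 13 members (18.1%), against 14.6% of all genes, and above it in none, against 15.5%. The 0.1 µM group has 1 of 3 arrays in the lower spike set and the DMSO group 2 of 3. With the spike set as a block, 14 members fell, with 7.21% of all genes called lower, and after quantile normalization 8, with 5.97%.

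Between 1.0 µM and 0.1 µM no member was called by limma, with 0.817% of all genes called, 0.387% higher and 0.430% lower. All 3 arrays at 1.0 µM lay below the 0.1 µM arrays in 8 members (11.1%), against 8.73% of all genes, and above them in none, against 9.73%. The change was below 0 in 70 of 72 members (97.2%), against 49.1% of all genes, with a median of −0.129. Without adjustment 7 members (9.7%) had p under 0.05, against 12.4% of all genes. In this comparison the 1.0 µM group has 2 of 3 arrays in the lower spike set and the 0.1 µM group 1 of 3. Each spike set holds a single array of 1 of these groups, so counts of calls within a set are not given. The group means were ordered DMSO, 0.1 µM, 1.0 µM from high to low in 46 of 72 members (63.9%), against 25.9% of all genes; both dose comparisons share the DMSO arrays.

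Most calls lay in members with a DMSO mean between 1000 and 10000. The share of all genes called at the same signal levels was not counted. Of 31 members with a DMSO mean of 10000 or more, 1 was called at 1.0 µM, with a median change of −0.172 and a median SE of 0.159. Of 38 members between 1000 and 10000, 11 were called, with a median change of −0.249 and a median SE of 0.116. Of 134 member probe sets above the filter, 115 had a change below 0. Where a member had more than 1 such probe set, 24 of 39 had all of them below 0, 14 had them on both sides of 0 and 1 had all above.

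**Figure D5:**
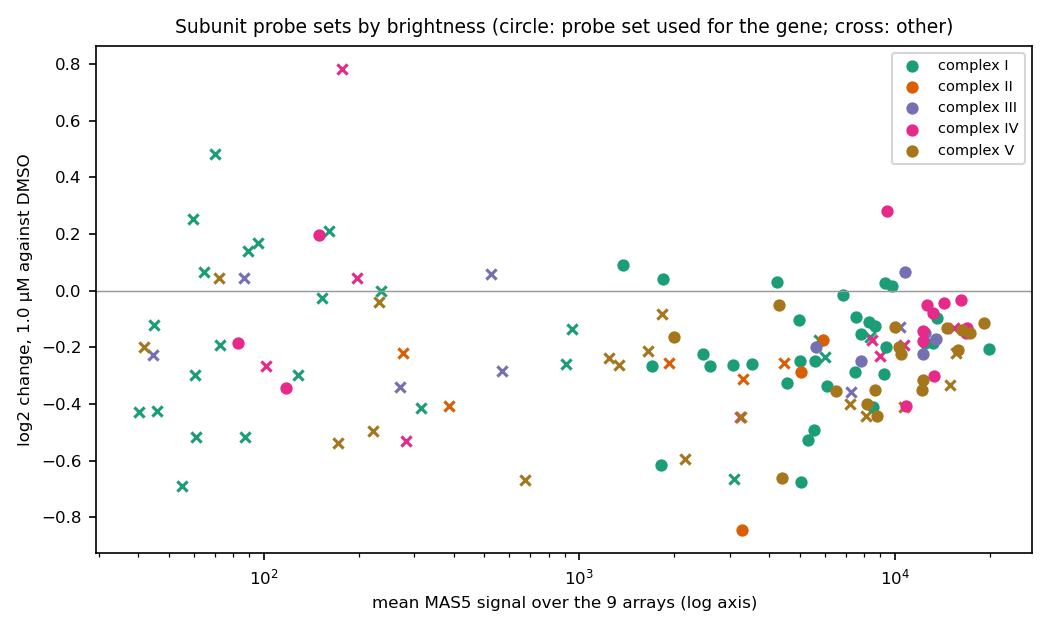
Log2 change at 1.0 µM against DMSO (y axis) of the 134 member probe sets above the filter by their mean MAS5 signal over the 9 arrays (x axis, log scale), coloured by complex, with circles for the probe set used for a gene and crosses for the others. The dim probe sets scatter on both sides of 0, and most bright ones lie below it.

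The COXFA4 genes, older symbols NDUFA4 and relatives, encode a subunit of complex IV and its isoforms and lie outside the symbol rule. COXFA4 was 9652, 13332 and 10302 at 1.0 µM, against 11322, 13722 and 10954 in DMSO, at −0.12 ± 0.16 (adjusted p = 0.655, limma). COXFA4L2, an isoform known from hypoxic cells, had signals of 12.5, 23.6 and 18.3 in DMSO, 62.3, 47.9 and 65.1 at 0.1 µM and 63.9, 65.9 and 69.2 at 1.0 µM. Its DMSO arrays lay below the filter level of 38.95, and it passed the filter through the treated arrays, so its test and fold are not given. COXFA4L3, older symbol C15orf48, was named after its values were seen and had signals of 6953, 7591 and 6041 in DMSO, 9727, 8071 and 9989 at 0.1 µM and 9809, 12042 and 9968 at 1.0 µM. All treated arrays lay above all DMSO arrays. COXFA4L3 rose by 0.63 ± 0.13 at 1.0 µM (adjusted p = 0.00383, limma) and 0.43 ± 0.13 at 0.1 µM (adjusted p = 0.0473, limma). The call at 1.0 µM held in all 26 alternatives. That at 0.1 µM held in 14 and ended, among others, after median centring, in the lower spike set alone, and without DMSO replicate 1 or 3, 0.1 µM replicate 1 or 3 or 1.0 µM replicate 1 or 3.

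Of the subunits encoded in mitochondrial DNA, 7 were tested and none passed at either dose; their median change at 1.0 µM was 0.03. Of 19 assembly factors of complex I, 2 rose at 1.0 µM, TMEM126A by 0.31 and NDUFAF6 by 0.31, and none fell. Of 40 assembly factors of complexes II to V, 4 rose and 4 (10.0%) fell. Over all tested genes at 1.0 µM, 12.3% were called higher and 11.0% lower. DMAC2L rose by 0.80, but its change was 0.35 in the higher spike set alone, with 1 array per group. COX16 and PET100, both needed to build complex IV, had changes of −0.71 and −0.61. COA8, also a complex IV factor, rose by 0.60, a call that held in 15 of 26 alternatives. It ended, among others, in the lower spike set alone (0.74), without 0.1 µM replicate 3 and without any 1.0 µM array. In the higher set alone the change of COA8 was 0.32. The calls of COX16 and PET100 held in all 26 alternatives. Those of TMEM126A and NDUFAF6 held in 17 each. That of TMEM126A ended, among others, in the lower spike set alone and without DMSO replicate 2 or 3 or any 1.0 µM array. That of NDUFAF6 ended, among others, in either spike set alone and without DMSO replicate 3 or 1.0 µM replicate 2 or 3. Of 17 genes of mitochondrial biogenesis and mitochondrial gene expression, none passed.

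Around the chain, 2 of 22 genes of electron carriers and coenzyme Q synthesis rose and 2 (9.1%) fell at 1.0 µM. Of all tested genes, 12.3% were called higher and 11.0% lower. SQOR, which oxidises sulphide and reduces coenzyme Q, rose by 0.84, and PDSS2 of coenzyme Q synthesis rose by 0.63. ETFB, a subunit of the flavoprotein that takes electrons from fatty acid oxidation, changed by −0.72. COQ3, also of coenzyme Q synthesis, changed by −0.54, a call that held in 22 of 26 alternatives. PDSS2 did not pass with the mean of its probe sets (0.19). Its change was 0.36 in the higher spike set alone, with 1 array per group. Of 24 genes of the citrate cycle and of pyruvate dehydrogenase with its kinases, 6 (25.0%) fell and 2 rose. The falls include the kinases PDK4, PDK3 and PDK1. IDH2, the mitochondrial NADP isocitrate dehydrogenase, had a mean signal of 2806 ± 440.4 at 1.0 µM and 6561 ± 508 in DMSO (SD, n = 3 each), a change of −1.23 ± 0.12. The pyruvate dehydrogenase kinases PDK4, PDK3 and PDK1 changed by −1.29, −1.10 and −0.84. Of 14 ADP/ATP carriers, porins and uncoupling proteins, the porins VDAC3 (−0.47) and VDAC1 (−0.41) fell at 1.0 µM (14.3% of the list). The call of VDAC1 held in 20 of 26 alternatives and ended, among others, with probe sets without _s_at or _x_at first (−0.06) and without DMSO replicate 2 or 3 or 1.0 µM replicate 1 or 3. That of VDAC3 held in 14 and ended, among others, in the lower spike set alone (−0.29, against −0.81 in the higher), with the mean of its probe sets (−0.28) and without DMSO replicate 1 or 2, 0.1 µM replicate 1 or 3 or 1.0 µM replicate 2 or 3. UCP2, an uncoupling protein family member, changed by 0.93 at 0.1 µM and passed; at 1.0 µM it was 0.37 and did not. At 1.0 µM it was 0.16 in the lower spike set alone and 0.77 in the higher, with 1 array per group. Without DMSO replicate 3 UCP2 passed at 1.0 µM (0.56). The call at 0.1 µM ended only in the lower set, which has 1 array at 0.1 µM (0.89). The difference between the doses had an adjusted p of 0.118 (limma). The calls of SQOR, ETFB, IDH2, PDK3 and PDK1 at 1.0 µM held in all 26 alternatives. That of PDK4 held in 24 of the 25 in which the gene was tested.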

How the data were processed

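Total RNA of 9 PANC-1 samples was hybridised to HG-U133 Plus 2.0 arrays. The authors deposited a linear intensity per probe set, MAS5 per the submitters' processing notes (version not given). The array number limits the precision.

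Values were read as log2(intensity + 16) without further normalization, so folds of dim genes are understated. Probe sets with a single symbol and a mean above the 40th percentile (signal 38.95) were kept, and the brightest stood for each gene, which gave 13948 genes. All 3 groups were fitted in limma 3.58.1 (R 4.3.3, lmFit and eBayes with trend, 6 residual and 5.93 prior degrees of freedom), two-sided, Benjamini-Hochberg adjusted over all genes; calls have an adjusted p under 0.05. The fit was tested on simulated data.

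Members, lists and tests were chosen with earlier results of these data known. Named were up to 3 called members each way per complex and dose, a fixed set of subunits and up to 3 called genes per related list; other called members (NDUFS3, NDUFB11, NDUFB3, ATP5ME, ATP5MJ) were added. Of the probe sets matching by symbol, 6 of antisense, divergent or pseudogene transcripts were left out, and 15 that list several genes were not used. ATP5MF, COX7A1, COX7B2 and COX8C were below the filter. Alternatives covered the added constant, filter, normalization, probe set choice, variance model, array weights, spike set, replicate block and each array left out. The same-numbered samples' deviations correlated at −0.34 to 0.22, so numbers were not taken as pairs.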

Additional observations from a re-analysis of the deposited data

How the results depend on the processing

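The number of arrays limits the precision, and 4 members below the filter were not tested. The count of members that fell at 1.0 µM (12) was 31 after quantile normalization (12.4% of all genes called lower), 28 with array weights (16.3%), 31 with the spike set as a block (15.2%), 20 in the lower spike set alone (9.18%) and 6 with the replicate block (8.45%), and 5 to 22 with an array left out (7.79% to 11.4%). No member rose at 1.0 µM, or 1 with quantile normalization, array weights or the spike block. At 0.1 µM the count that fell (1) was 2 with no filter or only the 6 arrays compared. It was 3 with the mean of probe sets, probe sets without _s_at or _x_at first or array weights. After quantile normalization it was 8, with the spike block 14, and with an array left out 0 to 3. Spike sets alone are not counted at this dose, as each leaves 1 array in a compared group. Of all genes, 8.34% were called lower there with array weights, 5.97% after quantile normalization and 7.21% with the spike block. The share was 2.96% to 5.23% in the others named here with no array left out. The count that rose at 0.1 µM (0) was 1 with quantile normalization or array weights and 0 to 1 with an array left out. At 1.0 against 0.1 µM the count that fell (0) was 15 with array weights (7.05% of all genes) and 1 after quantile normalization (0.652%). It was 2 with the spike block (0.968%), and 0 to 2 with an array left out. Taking probe sets without _s_at or _x_at first turned NDUFA2 to 0.14 and NDUFB7 to 0.17, on dim probe sets. The members' median at 1.0 µM stayed between −0.30 and −0.10 over 26 alternatives, and at 0.1 µM it ran from −0.20 to 0.04. SDHA and ATP5MC1 fell at 1.0 µM in all 26. Of 312 recomputed values of the 12 called members, 266 kept their call, 44 lost it and 2 turned. The replicate block ended the calls of ATP5F1C, ATP5PF, ATP5ME, ATP5MJ, NDUFB11 and NDUFB3. Median centring ended those of ATP5ME, ATP5MJ, NDUFB11 and NDUFB3. Why counts differ between these settings was not tested.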

Other observations

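The single-gene probe set of ATP5MF, a small membrane subunit of the ATP synthase, lay below the filter and was not tested. Its signals were 98.7, 52.9 and 104.2 in DMSO, 18.9, 38.9 and 23.8 at 0.1 µM, and 14.9, 18.2 and 27.8 at 1.0 µM. All 6 treated arrays were below all DMSO arrays. Of all tested genes, 18.0% had all 1.0 µM arrays below all DMSO arrays, and 14.6% had all 0.1 µM arrays below them. ATP5MF is not in the fixed set of named subunits. Another probe set lists ATP5MF together with a further gene and was not used.

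The probe sets of ATP5IF1 differed in size at 1.0 µM against DMSO: the one used for the gene gave −0.16 ± 0.11, another −0.21 ± 0.15 and the last −0.67 ± 0.10. Of 4 COX5B probe sets above the filter, a dim one gave 0.78 ± 0.37, against −0.18 ± 0.12 for the one used. The others, both bright, gave −0.19 and −0.23. These probe sets were picked out after their values were seen.

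Of the left-out antisense, divergent and pseudogene transcripts, 4 genes were tested and none was called at 1.0 µM in limma; all 4 had unadjusted p-values above 0.05 (NDUFB2-AS1 0.155, NDUFV2-AS1 0.59, ATP5MC2P1 0.868, NDUFV1-DT 0.885).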
